A study of Mus musculus with 75 samples.

Results

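Imprinted genes are transcribed mainly from one parental copy, and 36 of them were followed here by name through all 75 libraries of a mouse study of female germ cell fate. They are 36 of the 26218 genes in the deposited expression table. By the copy that textbooks give as the active one, 20 are paternally expressed (Igf2, Peg3, Peg10, Mest, Snrpn, Dlk1, Plagl1, Kcnq1ot1, Ndn, Magel2, Mkrn3, Peg12, Usp29, Nnat, Sgce, Impact, Rasgrf1, Airn, Nap1l5 and Peg13) and 15 are maternally expressed (Phlda2, Cdkn1c, H19, Igf2r, Grb10, Meg3, Slc22a18, Tssc4, Cd81, Ascl2, Ube3a, Zim1, Ppp1r9a, Rian and Mirg). Gnas, which has promoters of either kind, was kept apart. The genes were taken by name, with earlier results of these data known.

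The active and the silent copy of an imprinted gene differ in DNA methylation at a control region, laid down in the egg or in sperm precursors and copied at each cell division. Primordial germ cells, the embryo's precursors of eggs and sperm, lose these marks while they migrate to and settle in the gonads, after which male germ cells begin to write paternal marks before birth and female ones do so in the growing oocyte. The libraries measure the summed RNA of both copies, so a level says nothing of which copy was read. Neither parental alleles nor DNA methylation were measured in these files.

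The expression values are RPM, reads of a gene scaled to the same library total, from SC3-seq, which reads the 3′ ends of transcripts and was run here from 1 ng of RNA a library. Germ cells of ICR:C57BL/6 embryos made up 22 libraries, 2 for each of 11 groups: E9.5, E10.5 and E11.5 with sex not given, and females and males for each day between E12.5 and E15.5. Cells to E13.5 carried a Dppa3-EGFP transgene and were sorted for it, and those at E14.5 and E15.5 carried Ddx4-RFP, so the reporter and the stage cannot be told apart across that step. A second set of 22 libraries came from primordial germ cell-like cells (PGCLCs), germ cells made from pluripotent cells in culture, of a 129S1:C57BL/6 line with Prdm1-mVenus and Dppa3-ECFP transgenes. They were grown on mitomycin-treated m220 feeders in medium with forskolin and rolipram, sorted as BV+ at day 0 and SC+ later, and sampled at culture day 0, at day 3 under the condition labelled CT, and at days 5, 7 and 9 under RB, RA and CT, with 2 libraries each. The labels do not spell out RB, RA and CT; the title of the study names bone morphogenetic protein and retinoic acid. The third set held DBA/2:C57BL/6 PGCLCs, 4 Stra8-/- libraries from 3 lines (SK1 with 2 libraries, SK2 and SK3) and 2 wild type libraries at each of CT day 3 and RB day 5, day 7 and day 9, 24 libraries in all. The remaining 7 libraries had no replicate. Of these, 6 came from C57BL/6 PGCLCs and the other, labelled 0R3B, from the 129S1:C57BL/6 line.

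Depth as read from the smallest steps of the values was 1.08 to 15.6 M reads a library, with a median of 3.12 M reads, so 3 reads stood for 0.192 to 2.78 RPM. Dppa3, the germ cell gene behind the sorting reporter, stood at 1926 and 1927 RPM at E9.5 and at 5449 and 5550 RPM in E13.5 males. Ddx4, a helicase of settled germ cells, stood at 25.2 and 18.7 RPM at E9.5 and at 511 to 741 RPM in each library from E13.5 on. Among the imprinted genes, 18 reached a group mean of 20 RPM somewhere, and 5 stayed below 5 RPM in every group (Peg10, Airn, Peg13, Zim1 and Rian). The Snrpn row, with a median of 0.0116 RPM and a highest value of 26.9 RPM, shares its transcript with Snurf, whose row held 11.3 to 189 RPM, so how reads were divided between the pair is uncertain, and so is each Snrpn call counted below. The labels do not say whether strand was used, and Mest, Kcnq1ot1 and Gnas overlap Copg2, Kcnq1 and Nespas on the other strand. Tests covered genes at 5 RPM or more in at least 2 libraries of a set, and a gene was called if its adjusted p was below 0.05 and its log2 change at least 1 in size; 29, 26 and 27 of the 36 genes were tested in the embryo, 129S1 and Stra8 sets. Of these, Nnat in the embryo (E9.5), Magel2 in the 129S1 set (day 0), and Dlk1, Plagl1 (both knockout RB day 9) and Rasgrf1 (wild type RB day 9) in the Stra8 set passed this filter through 1 group alone, so a difference from that group was built in and their calls against it are a description. In such bulk samples, fewer cells of a type and less RNA in each of them cannot be told apart.

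Promoter sequences of 3 of the genes are given first. These genes were among those with the sex difference described below. They differ in the density of CG, the letter pair at which mammalian DNA is methylated. A link between CG density and the sex difference was not tested. Phlda2 limits placental growth and Slc22a18 encodes a transporter. They lie side by side on chromosome 7 (RefSeq gene spans on GRCm38, Slc22a18 at 143473726 to 143499334 and Phlda2 at 143501545 to 143503145) and moved together. Mest encodes a protein of the hydrolase fold on chromosome 6 (30733506 to 30748466) and went the other way. The runs are the 250 bases before an annotated transcript start from RefSeq, GRCm38.p6, which for each of the 3 lies inside RefSeq's span of the gene, 5′ to 3′ on the gene's strand, with each CG in capitals: chr7:143502525-143502774 (minus strand) for Phlda2, chr7:143473539-143473788 (plus strand) for Slc22a18 and chr6:30737800-30738049 (plus strand) for Mest, which has 3 annotated starts, 2 of them with the same highest number of CG in nearly the same window, of which one is shown.
Phlda2: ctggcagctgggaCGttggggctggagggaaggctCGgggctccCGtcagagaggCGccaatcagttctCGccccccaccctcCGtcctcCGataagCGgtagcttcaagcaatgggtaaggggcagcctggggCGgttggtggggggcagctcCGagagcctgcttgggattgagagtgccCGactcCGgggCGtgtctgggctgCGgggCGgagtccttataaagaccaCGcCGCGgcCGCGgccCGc
Slc22a18: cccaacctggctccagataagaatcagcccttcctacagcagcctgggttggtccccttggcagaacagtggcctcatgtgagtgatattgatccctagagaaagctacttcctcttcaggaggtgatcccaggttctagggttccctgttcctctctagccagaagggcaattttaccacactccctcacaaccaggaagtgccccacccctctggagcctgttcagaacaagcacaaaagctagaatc
Mest: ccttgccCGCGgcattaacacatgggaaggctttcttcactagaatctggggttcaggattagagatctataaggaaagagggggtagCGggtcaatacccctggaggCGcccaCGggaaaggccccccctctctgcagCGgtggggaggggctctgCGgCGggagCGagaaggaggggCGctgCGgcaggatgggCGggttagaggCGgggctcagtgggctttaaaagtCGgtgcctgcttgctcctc
The Phlda2 window held 21 CG, the Slc22a18 window 0 and the Mest window 14. Over the 32851 windows of 27025 genes in the same table, the median was 6 CG with quartiles of 2 and 16. TGCCGC, the hexamer read by the imprint-keeping zinc finger protein ZFP57 when methylated, was searched on both strands and occurred 2 times in the Mest window, in neither of the other windows, and in 8.68% of all windows. Of the 30 imprinted genes with a window, 5 held it (Meg3, Mest, Nap1l5, Plagl1 and Zim1).

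The first stretch, E9.5 to E11.5, covers germ cell migration. Spike-in RNA stood at 1114 and 475 RPM in the E9.5 libraries and at 11238 to 50624 RPM in the other embryo libraries. In comparisons with E9.5, the stage and this difference between libraries cannot be told apart. Of the 29 imprinted genes tested, 1 rose and 13 fell at E11.5 relative to E9.5, against 11.4% of all genes called (5.01% higher, 6.37% lower), and the median log2 change was -0.69 against 0.02 for all genes. Genes of both kinds fell, 7 of 16 paternally and 5 of 12 maternally expressed ones, with medians of -0.68 and -0.61. The paternally expressed ones include Nnat, whose fall from E9.5 was built in by the filter. Igf2, the fetal growth factor, stood at 167 and 164 RPM at E9.5, 95.4 and 87.5 RPM at E10.5 and 24.1 and 24.7 RPM at E11.5. Each stage lay apart from the next, and the change at E11.5 relative to E9.5 was -2.71 ± 0.29 on the log2(RPM + 1) scale (SE, adjusted p = 2.88e-07). Mest fell further, at 450.4 and 443 RPM at E9.5, 98.2 and 83.1 RPM at E10.5 and 18.6 and 26.3 RPM at E11.5 (-4.27 ± 0.22, adjusted p = 8.08e-13). H19, the noncoding RNA read from the maternal copy of the Igf2 domain, was at 135 and 124 RPM at E9.5, 74.3 and 109 RPM at E10.5 and 28.3 and 27.6 RPM at E11.5, so both RNAs of that domain fell together. Grb10, an adaptor that restrains insulin-type receptors, stood at 2.62 and 5.77 RPM at E11.5 against 103 and 109 RPM at E9.5, and the Gnas locus, source of the stimulatory G protein subunit, at 95.7 and 91.7 RPM against 522 and 533 RPM. Cdkn1c, a cyclin-dependent kinase inhibitor, was at 14.4 and 6.42 RPM against 52.5 and 64.8 RPM, and Meg3, a noncoding RNA of the Dlk1 domain, at 14.8 and 13.47 RPM against 58.4 and 59.5 RPM. Dlk1, a membrane protein related to Notch ligands, read 0 in both E11.5 libraries against 12.6 and 6.53 RPM at E9.5, and Nnat, a small membrane protein of neural tissue that passed the filter through E9.5 alone, 0.262 and 0 RPM against 15.3 and 13.54 RPM.

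Several of the more abundant genes were not called over the same days. Phlda2 was at 166 and 153 RPM at E11.5 against 314 and 275 RPM at E9.5 and was not called. Ube3a, a ubiquitin ligase, and Igf2r, the receptor that clears IGF2, stood at 57.7 and 52.3 RPM and at 70.3 and 61.6 RPM at E11.5. At E9.5 the values were 34.2 and 33.4 RPM for Ube3a and 57.2 and 67.2 RPM for Igf2r, and neither change reached the log2 limit of 1. Kcnq1ot1, the paternal noncoding RNA that silences neighbours in its domain, was the one gene higher at E11.5, at 14.7 and 11.55 RPM against 5.63 and 3.38 RPM (1.38 ± 0.37, adjusted p = 0.00868). Leaving out E9.5 replicate 2 brought the 14 calls to 9: Plagl1 (-1.43), Kcnq1ot1 (1.08), Magel2 (-1.14) and Cd81 (-0.95) lost the call, and Nnat fell below the filter and was not tested. These were also the genes lost when another library was left out.

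Markers of blood and endothelium moved with the same contrast. The 9 markers of that list summed to 3500 to 3656 RPM at E9.5, 173 to 174 RPM at E10.5 and 4.65 to 11.7 RPM at E11.5, where Ptprc was at 0. The 9 fibroblast markers summed to 4.99 to 5.45 RPM at E11.5, with Col1a2, Dcn, Lum, Postn and Thy1 at 0, against 117 to 122 RPM at E9.5. Against E10.5, a comparison added after the data were seen, 5 of the 14 genes were still called, all lower at E11.5 (Igf2, Mest, Nnat, H19 and Grb10; Nnat entered the test through E9.5 alone), with 1.13% of all genes called. The part of other cell types in the fall was not tested. In the list of DNA methylation genes, 1 of 15 rose (Tet1) and 4 fell at E11.5 relative to E9.5, against 11.4% of all genes called. Uhrf1, which brings the maintenance methyltransferase to copied DNA, averaged 3.34 RPM at E11.5 against 22.9 RPM at E9.5 (-2.46, adjusted p = 1.40e-06), and Dnmt3b, a de novo methyltransferase, 2.48 against 7.52 RPM (-1.46, adjusted p = 0.0184). Among other imprinted genes outside the 36, 1 of 18 tested was called, Gab1, an adaptor of growth factor signalling, higher at E11.5.

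**Figure D1:**
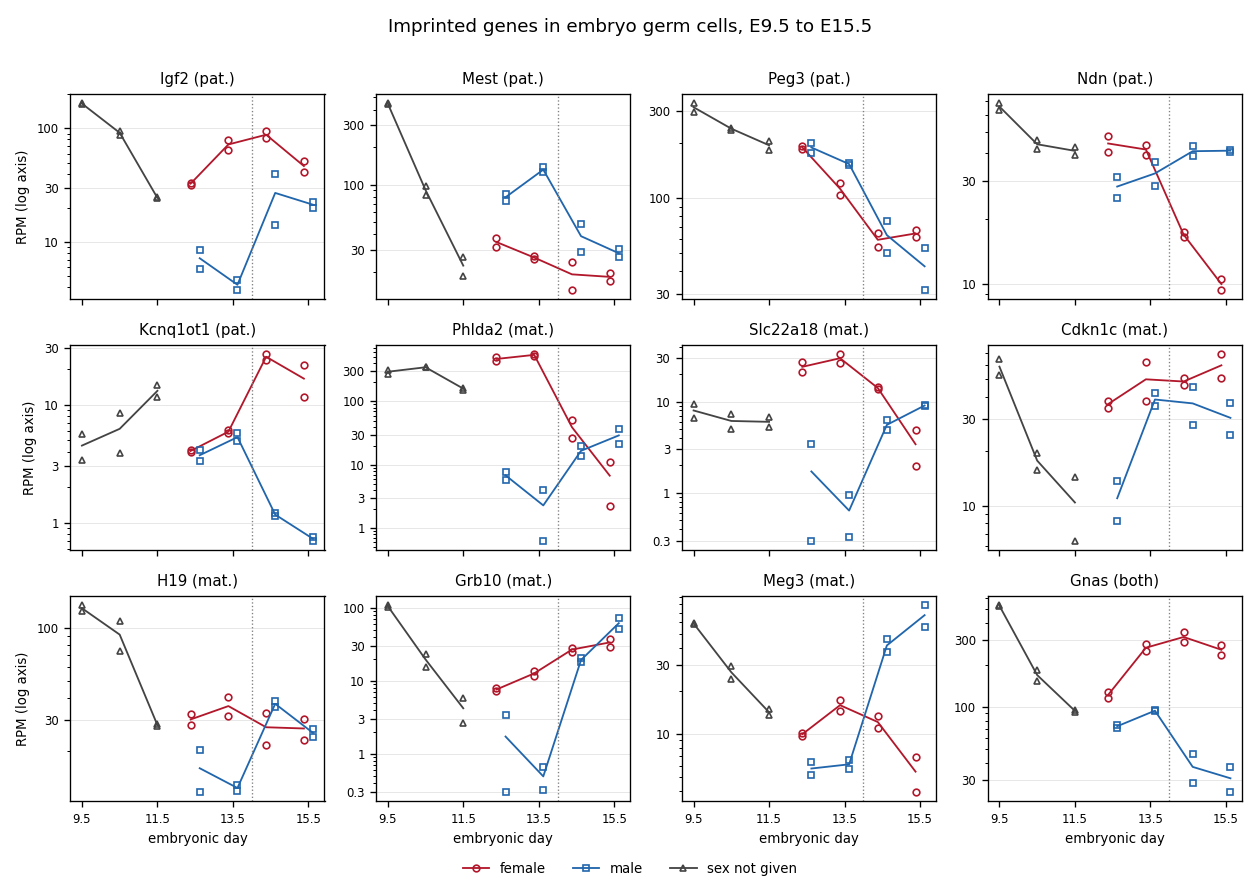
RPM (log axis) of 12 imprinted genes by embryonic day; each symbol is a library, lines join group means, red circles are females, blue squares males and grey triangles stages with sex not given. Values below 0.3 RPM are drawn at 0.3, and the dotted line marks the change of sorting reporter; Phlda2 lies at 435 to 559 RPM in E12.5 and E13.5 females and at 0.635 to 7.81 RPM in males of the same stages.

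The sexes differed at E12.5, the first stage with sex given. The counts of imprinted genes higher and lower than at E11.5 also differed between them. Relative to E11.5, 11 of 29 were higher and 1 lower in E13.5 females, against 22.9% of all genes called (15.2% higher, 7.69% lower). In E13.5 males 5 were higher and 10 lower, against 15.6% of all genes called (8.76% higher, 6.88% lower). Medians were 0.34 in females and -0.34 in males, against 0.13 and 0.09 for all genes. The maternally expressed genes gave 6 higher and 0 lower in females, and 3 higher and 6 lower in males. The paternally expressed genes gave 4 higher and 1 lower in females, and 2 higher and 4 lower in males. Centring each library on its median shifted all genes by 0.15 in females, where the higher share of all called genes became 54.9% in place of 66.5% and 10 imprinted genes were higher and 2 lower. Whichever library was left out, 7 of the 12 calls held in females and 9 of the 15 in males; the others were lost in at least 1 such fit. In females, with the smallest log2 change among the fits that lost the call, these were Kcnq1ot1 (-0.86, lost without each of the 4 libraries in turn), Grb10 (1.01), Usp29 (0.49) and Cd81 (0.51), and Snrpn fell below the filter without female replicate 1. In males they were Kcnq1ot1 (-0.99), Peg12 (-0.59), Ppp1r9a (-1.26), Grb10 (-1.30), Magel2 (-0.84) and Usp29 (1.33). The E11.5 libraries are shared by both comparisons and their sex is not given. If they mix the sexes, these differences from E11.5 do not give the change within 1 sex. The direct test is therefore of females against males at each stage. There, 6 of 29 were higher and 1 lower in females at E12.5, against 6.53% of all genes called (3.77% higher, 2.75% lower), and 10 were higher and 1 lower at E13.5, against 16.7% (10.4% higher, 6.31% lower). The maternally expressed share was 4 of 12 at E12.5 and 6 of 12 at E13.5, with none of that kind lower, and their median difference at E13.5 was 1.01 against 0.04 for all genes.

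Phlda2, whose CG-rich promoter is printed above, held the widest gap. It stood at 502 and 435 RPM in females and 7.81 and 5.84 RPM in males at E12.5. At E13.5 it stood at 528 and 559 RPM in females and 0.635 and 3.94 RPM in males. No female library came near a male one, and the differences were 5.91 ± 0.44 and 7.58 ± 0.44 on the log2 scale (adjusted p = 2.54e-09 and 1.01e-11). In E13.5 females the gene lay above the 166 and 153 RPM of E11.5 by 1.76 ± 0.44. In E13.5 males it lay below them by 5.82 ± 0.44. Slc22a18, next to it, was at 20.9 and 27.1 RPM in females and 0 and 3.43 RPM in males at E12.5, then at 26.5 and 33.0 RPM in females and 0.952 and 0.328 RPM in males at E13.5 (4.25 ± 0.48, adjusted p = 4.88e-07). Cdkn1c of the same domain was higher in females at E12.5, at 34.8 and 38.1 RPM against 13.8 and 8.24 RPM, but at E13.5 stood at 62.0 and 37.8 RPM in females and 35.5 and 41.7 RPM in males, where the groups overlapped. Its rise since E11.5 was called in both sexes. Ascl2, a transcription factor of the placenta from the same domain, rose in both, to 22.2 and 17.6 RPM in E13.5 females and 50.5 and 42.7 RPM in E13.5 males against 3.94 and 1.92 RPM at E11.5. Kcnq1ot1, whose RNA covers the domain on the paternal copy, was at 6.06 and 5.77 RPM in females and 5.71 and 4.92 RPM in males at E13.5 and did not pass the test between them.

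Other imprinted domains also differed by sex at these stages. Igf2 stood at 33.4 and 31.9 RPM in females and 8.56 and 5.84 RPM in males at E12.5, and at 65.2 and 79.2 RPM in females and 3.81 and 4.60 RPM in males at E13.5 (3.81 ± 0.29, adjusted p = 8.96e-10). Its partner H19 was at 31.4 and 40.4 RPM in females and 12.7 and 11.8 RPM in males at E13.5 (1.47 ± 0.24, adjusted p = 7.29e-05), so both RNAs of the domain were higher in females. Plagl1, a zinc finger transcription factor, read 16.1 and 13.47 RPM in E13.5 females and 1.27 and 1.31 RPM in males (2.78 ± 0.42, adjusted p = 2.17e-05). Gnas was at 280.3 and 249 RPM in females and 95.2 and 92.9 RPM in males, a difference that was not called at E12.5. Grb10 and Meg3 were likewise higher in E13.5 females, Grb10 at 11.53 and 13.8 RPM against 0.317 and 0.656 RPM and Meg3 at 17.3 and 14.4 RPM against 5.71 and 6.56 RPM.

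Mest was the one gene called lower in females at both stages. It stood at 37.5 and 31.9 RPM in females and 74.4 and 84.1 RPM in males at E12.5, and at 26.8 and 25.3 RPM in females and 126 and 138 RPM in males at E13.5 (-2.29 ± 0.22, adjusted p = 4.60e-08). Relative to E11.5, males were higher by 2.52 ± 0.22 on the log2 scale while females were not called. Peg3, a zinc finger protein, was not called between the sexes at either stage, and stood at 104 and 122 RPM in females and 155 and 152 RPM in males at E13.5. Calls lost when a library was left out were those of Grb10 at E12.5 (0.96 without male replicate 1) and of Ppp1r9a, the neurabin gene, at E13.5 (without each of the 4 libraries in turn, 0.98 to 1.37), where Snrpn also fell below the filter without female replicate 1. Marker sums of somatic gonad cells were 31.7 to 33.4 RPM in females and 30.5 to 32.4 RPM in males at E13.5 over 10 genes, and of fibroblasts 2.24 to 4.04 RPM in females and 3.94 to 6.66 RPM in males over 9 genes, so the ranges of both sums overlapped, and Amh, the hormone of Sertoli cells, was at 0 in both. Single somatic gonad markers did differ: of 6 tested, Insl3 was higher in females (means of 26.2 and 5.00 RPM) and Gata4, Sox9, Cyp11a1 and Cyp17a1 were lower, at means of 0 to 0.304 RPM in females and 2.11 to 4.98 RPM in males. Blood and endothelium markers summed to 16.8 to 18.6 RPM in females and 1.97 to 4.44 RPM in males at E13.5, with Cdh5, Kdr and Ptprc at 0 in both, and the part of these cell types in the sex difference was not tested.

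**Figure D2:**
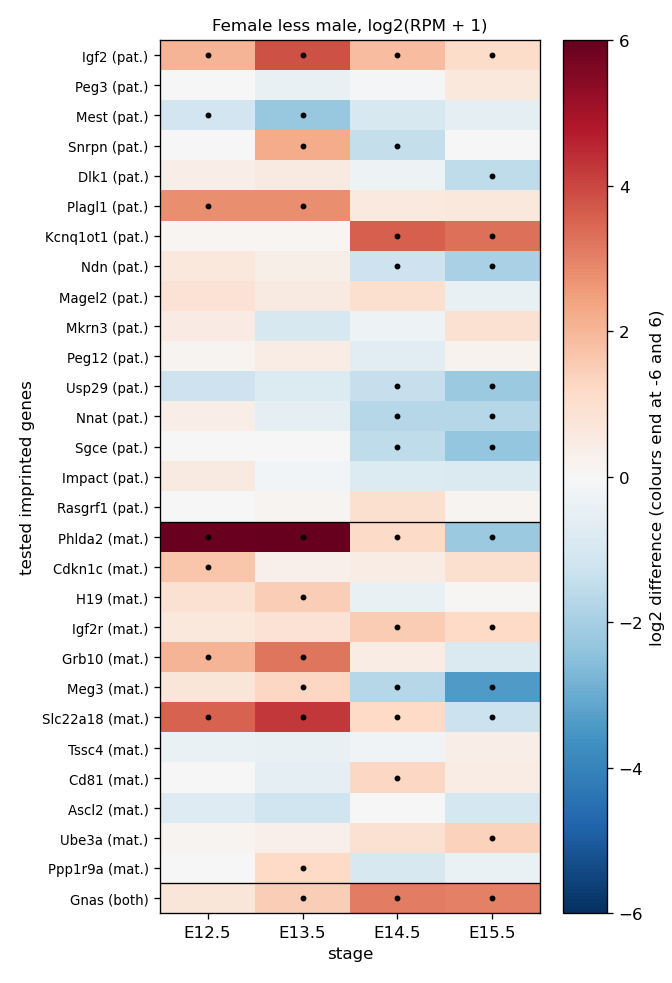
Log2 difference of females less males in log2(RPM + 1) for the 29 tested imprinted genes at 4 stages, with paternally expressed genes on top, then maternally expressed ones and Gnas at the bottom; red is higher in females, blue lower, a dot marks a called gene, and colours end at -6 and 6. Phlda2 and Slc22a18 are red at E12.5 and E13.5 and Phlda2 is blue at E15.5, while Kcnq1ot1 is red at E14.5 and E15.5.

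After E13.5, when female germ cells enter meiosis and male ones arrest, the order of several genes turned round. In females at E15.5 relative to E13.5, 5 of 29 rose and 10 fell, against 42.4% of all genes called (19.5% higher, 22.9% lower). In males 10 rose and 6 fell, against 39.5% of all genes called (23.4% higher, 16.1% lower). With quantile normalization, which shifted all genes by 0.18 in males, the male counts were 9 and 9 and the higher share of all called genes 47.8% in place of 59.3%. In males all 16 calls held whichever library was left out, and in females Kcnq1ot1 (0.88), Sgce (1.08) and Impact (-0.85) lost theirs without E15.5 replicate 1, Impact also without E13.5 replicate 1, where Snrpn fell below the filter. The stages were sorted with different reporters. Between E15.5 and E14.5, sorted alike and compared after the data were seen, 3 genes were called in females, all lower (Phlda2, Meg3 and Slc22a18; 4.91% of all genes), and 1 in males, Grb10, higher (1.91% of all genes). Phlda2 fell in females, at 528 and 559 RPM at E13.5, 51.8 and 26.6 RPM at E14.5 and 11.3 and 2.23 RPM at E15.5. In males it rose, at 0.635 and 3.94 RPM at E13.5, 13.6 and 19.7 RPM at E14.5 and 21.1 and 37.1 RPM at E15.5. At E15.5 it was therefore lower in females (-2.21 ± 0.44, adjusted p = 0.000103), and the sex difference changed by -8.12 ± 0.62 between E12.5 and E15.5 (adjusted p = 1.53e-10). Slc22a18 followed, at 4.87 and 1.95 RPM in females and 9.26 and 8.82 RPM in males at E15.5, with a change in the sex difference of -4.83 ± 0.68, although its own difference at E15.5 was lost without female replicate 2 (-0.77), male replicate 1 (-1.24) or male replicate 2 (-1.30), and with quantile normalization (-0.76).

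Meg3 and Grb10 rose in males. Meg3 stood at 3.95 and 6.96 RPM in E15.5 females against 17.3 and 14.4 RPM at E13.5, and at 55.6 and 79.0 RPM in E15.5 males against 5.71 and 6.56 RPM at E13.5. Females were thus lower at E15.5 by a log2 difference of -3.42 ± 0.27 (adjusted p = 7.44e-11), the reverse of E13.5. Grb10 reached 29.2 and 38.1 RPM in E15.5 females, where the call was lost without E13.5 replicate 1 (1.22) or E15.5 replicate 2 (1.15), and rose to 51.1 and 72.7 RPM in males against 0.317 and 0.656 RPM at E13.5. Dlk1, Sgce, Nnat and Rasgrf1, paternally expressed genes at or near 0 RPM in E13.5 males, read 5.19 and 6.00, 14.45 and 10.9, 3.71 and 2.82, and 6.30 and 6.35 RPM in E15.5 males. Of these, Rasgrf1, an exchange factor for Ras, also rose in females, to 4.56 and 10.9 RPM at E15.5 against 0.288 and 0 RPM at E13.5, and so did Sgce, the epsilon-sarcoglycan gene, to 2.43 and 1.113 RPM against 0 RPM.

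Gnas and Kcnq1ot1 separated the sexes by wide margins at the late stages. Gnas stood at 236 and 276 RPM in females and 24.8 and 37.1 RPM in males at E15.5 (3.03 ± 0.17, adjusted p = 3.04e-13). Kcnq1ot1 stood at 24.1 and 26.8 RPM in females and 1.21 and 1.14 RPM in males at E14.5, and at 21.6 and 11.7 RPM in females and 0.760 and 0.706 RPM in males at E15.5 (3.29 ± 0.37, adjusted p = 3.40e-08). The lowest of these female values, 11.7 RPM, lay far above the highest male one, 1.21 RPM. Ndn, a MAGE family protein, went the other way, at 9.43 and 10.6 RPM in females and 40.8 and 41.6 RPM in males at E15.5 (-1.94 ± 0.19, adjusted p = 2.12e-09). Ube3a was at 117 and 134 RPM in females and 46.7 and 46.9 RPM in males, and Igf2r at 54.8 and 65.1 RPM in females and 25.9 and 25.1 RPM in males. Igf2 was higher in females at E14.5 and E15.5, although the E15.5 call was lost without female replicate 1 (0.92).

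Across the imprinted genes, 7 were higher and 6 lower in females at E14.5, against 48.3% of all genes called (22.4% higher, 25.9% lower). At E15.5 they were 5 and 8, against 53.6% (23.7% higher, 30% lower). At both stages that is 44.8% of the 29. Between E12.5 and E15.5 the sex difference itself changed for 13 of 29, 3 up and 10 down, against 49.9% of all genes called; Impact lost this call in each of 4 fits without 1 library (-0.93 to -1.31) and with quantile normalization (-0.82), as did Dlk1 with the last (-1.22). With quantile normalization, Dlk1 (-0.80) and Nnat (-0.96) also lost the E15.5 call. At E14.5, Snrpn, Usp29, Sgce, Phlda2 and Slc22a18 each lost the call in at least 1 fit without a library, Slc22a18 in all 4 (1.05 to 1.37). Without female replicate 1, Phlda2 was at 0.67 and Usp29 at -1.12, and both calls were also lost without male replicate 1. Fibroblast markers summed to 13.4 to 37.9 RPM in females and 83.4 to 106 RPM in males at E15.5, and somatic gonad markers to 11.7 to 15.6 RPM in females and 40.2 to 46.1 RPM in males, with Amh at 0 in both, and their part in the late male rise of Meg3, Grb10, Dlk1, Igf2 and Sgce was not tested. Blood and endothelium markers summed to 57.8 to 213 RPM in females and 124 to 196 RPM in males.

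The list of DNA methylation genes was read at the same stages. Of its 15 tested genes, 5 rose and 3 fell in E15.5 relative to E13.5 males, against 39.5% of all genes called. Dnmt3l, the cofactor of de novo methylation, averaged 720.1 RPM in E15.5 males and read 0 at E13.5, and Dnmt3a, the methyltransferase of male imprints, averaged 415 RPM in E15.5 males against 34.7 RPM at E13.5 (3.54, adjusted p = 1.96e-13). In females over the same days, 2 rose and 6 fell, against 42.4% of all genes called. Dnmt1 and Dnmt3a were among those that fell. Tet1, an enzyme that oxidises methylated cytosine, was called lower in both sexes, in females at 1.20 RPM against 63.2 RPM (-5.00, adjusted p = 2.75e-13). Between the sexes at E15.5, 2 were higher (Uhrf1 and Zfp445) and 7 lower in females, against 53.6% of all genes called. Among other imprinted genes outside the 36, 1 of 7 paternally expressed ones was higher in E15.5 than in E13.5 females (Zdbf2) and 4 were lower. Of 11 maternally expressed ones, 0 were higher and 7 lower. Over all genes, 19.5% were higher and 22.9% lower in that comparison. Slc38a4, an amino acid transporter, averaged 2.33 RPM in E15.5 females and 39.5 RPM in E15.5 males (-3.59, adjusted p = 1.81e-13), and Sfmbt2, a Polycomb-group protein, 2.71 and 96.8 RPM (-5.01, adjusted p = 1.60e-11).

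In culture, 4 imprinted genes differed between CT day 3 and day 0. Day 0 cells were sorted as BV+ and later ones as SC+, so sorting and day cannot be told apart in this comparison. In PGCLCs at CT day 3 relative to day 0, 0 of 26 rose and 4 fell, against 5.47% of all genes called, with a median of -0.59 against 0.00 for all genes. Meg3 fell to 37.3 and 28.0 RPM at CT day 3 against 146 and 176 RPM at day 0 (-2.27 ± 0.38, adjusted p = 0.000349), and this call held whichever library was left out. Impact, an inhibitor of the amino acid stress kinase GCN2, was at 79.3 and 81.8 RPM against 191 and 150.04 RPM, and its call was lost without day 0 replicate 1 (-0.89). The calls of Sgce and Snrpn were each lost in at least 1 such fit (Sgce -1.42 without CT day 3 replicate 2). Continued CT culture to day 9 raised 3 of 26 and lowered 1 relative to CT day 3, against 2.25% of all genes called (1.66% higher, 0.59% lower). Igf2 stood at 39.2 and 20.4 RPM against 6.91 and 5.90 RPM (1.99 ± 0.34, adjusted p = 0.00122), Mest at 86.1 and 103 RPM against 23.7 and 28.7 RPM (1.82 ± 0.23, adjusted p = 5.25e-05) and Gnas at 132 and 126 RPM against 54.3 and 61.5 RPM (1.14 ± 0.17, adjusted p = 0.000261). Magel2, a MAGE family protein, read 0 in both CT day 9 libraries against 3.95 and 4.42 RPM at CT day 3. Fibroblast markers, which the feeders would carry, summed to 2.90 to 3.52 RPM at day 0, 50.3 to 65.2 RPM at CT day 3 and 40.1 to 97.7 RPM at CT day 9.

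Under RB, 2 of 26 imprinted genes differed from CT at day 5, 1 higher and 1 lower (0.674% of all genes called, 0.556% higher and 0.118% lower). At day 7 there were 4, 3 higher and 1 lower (19.3%, 15.7% higher and 3.62% lower), and at day 9 there were 13 (36.7%). At day 7 centring shifted all genes by 0.29, the higher share of all called genes became 60.2% in place of 81.2%, and 2 higher and 3 lower imprinted genes were called in place of 3 and 1. At day 5 Phlda2 stood at 139 and 99.9 RPM under RB against 46.2 and 25.1 RPM under CT (1.76 ± 0.26, adjusted p = 0.000727). It stood at 113 and 87.4 RPM against 82.6 and 61.2 RPM at day 7, and at 108 and 78.9 RPM against 48.8 and 42.7 RPM at day 9, so every RB library lay above both CT libraries on each day, though the day 7 difference was not called. Of the 4 calls at day 7, Gnas (0.93) and Grb10 (1.14) were lost without CT replicate 2. Under RA, Phlda2 was at 43.3 and 28.0 RPM at day 5 and 30.2 and 28.4 RPM at day 9, and at day 9 RB exceeded RA by 1.62 ± 0.26 (adjusted p = 3.19e-05). Meg3 was lower under RB at day 5, at 3.27 and 1.23 RPM against 10.6 and 6.60 RPM, and this call was lost without CT replicate 1 (-1.30), CT replicate 2 (-1.91) or RB replicate 2 (-1.14), each of which left 1 call.

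At day 9 under RB relative to CT, 8 of 26 were higher and 5 lower, against 24.6% and 12.1% of all genes. Centring each library on its median shifted all genes by 0.32 in this comparison, and 3 higher and 7 lower imprinted genes were then called, while the higher share of all called genes became 48.5% in place of 66.9%. The genes that kept their call under each other setting tried and each left-out library were Peg3, Impact, Cdkn1c and Grb10. Peg3 was at 123 and 146 RPM under RB against 357 and 523 RPM under CT (-1.68 ± 0.25, adjusted p = 3.90e-06), and Impact at 35.7 and 31.7 RPM against 121 and 96.0 RPM (-1.65 ± 0.16, adjusted p = 7.80e-09). Cdkn1c, the cell cycle inhibitor, stood at 27.8 and 25.9 RPM under RB against 2.73 and 6.47 RPM under CT (2.40 ± 0.50, adjusted p = 0.000263), and Grb10 at 11.9 and 11.3 RPM against 2.57 and 2.59 RPM (1.81 ± 0.41, adjusted p = 0.000662). No RB library overlapped a CT one for these 4 genes. H19, Igf2, Gnas, Phlda2, Mkrn3 and Sgce were higher by 1.00 to 1.73 before centring. With RB replicate 1 left out 7 genes were called; H19 was then at 0.83, Igf2 at 0.66, Gnas at 0.91 and Phlda2 at 0.78, and the last 3 were also lost without CT replicate 2. Of the 13 calls, 5 held whichever library was left out.

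The calls under RA in part repeated those under RB, which shares its CT libraries. Igf2, H19, Gnas and Sgce were called higher than CT under both at day 9. Meg3 was called lower under RB and higher under RA. For RA relative to CT at day 9, 8 of 26 rose and 0 fell, against 16.3% of all genes called. The median was 0.85 against 0.20 for all genes. The higher share of all called genes was 81.6%, or 61.1% after centring. Centring shifted all genes by 0.27 and left the count of imprinted genes at 8 higher. H19 stood at 1068 and 1449 RPM under RA against 193 and 189.8 RPM under CT (2.69 ± 0.26, adjusted p = 8.77e-08). Igf2 was at 71.5 and 88.6 RPM against 39.2 and 20.4 RPM, a call lost without CT replicate 2 (adjusted p = 0.0795). Mest stood at 238 and 261 RPM against 86.1 and 103 RPM (1.39 ± 0.23, adjusted p = 8.56e-05), Gnas at 323 and 324 RPM against 132 and 126 RPM (1.32 ± 0.17, adjusted p = 3.39e-06), and Cd81, a tetraspanin, at 62.4 and 72.7 RPM against 26.4 and 25.5 RPM (1.34 ± 0.28, adjusted p = 0.00104). Every RA library exceeded every CT library for these genes. Meg3 and Mirg, neighbours in the Dlk1 domain, were also higher, but their calls were lost without CT replicate 1 (Meg3, 1.09) or, for Mirg, without CT replicate 2 (1.46) or either RA library (1.55 and 1.58).

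RB and RA were set against each other at day 9, where 2 of 26 were higher and 11 lower under RB. Over all genes 24.8% were called (13.1% higher, 11.7% lower). All 6 paternally expressed genes called were lower under RB, and so were H19, Meg3, Cd81, Ppp1r9a and Mirg of the maternally expressed ones. Mest was at 75.5 and 37.3 RPM under RB against 238 and 261 RPM under RA (-2.21 ± 0.23, adjusted p = 7.86e-08), Impact at 35.7 and 31.7 RPM against 137 and 137 RPM (-1.99 ± 0.16, adjusted p = 2.23e-09), and Peg3 at 123 and 146 RPM against 301 and 482 RPM (-1.50 ± 0.25, adjusted p = 3.55e-05). H19 was at 610.4 and 341 RPM against 1068 and 1449 RPM and Meg3 at 13.9 and 6.17 RPM against 61.8 and 57.4 RPM. Phlda2 and Cdkn1c were the 2 genes higher under RB. Of the 13 calls, Peg12 was lost without RB replicate 1 (-0.79) or RA replicate 1 (-0.95), and Mirg without RB replicate 2 (-0.89) or either RA library (-1.44 and -1.48). Fibroblast markers summed to 30.3 to 56.4 RPM under RB, 117 to 197 RPM under RA and 40.1 to 97.7 RPM under CT at day 9, over 9 markers of which Lum was at 0 under RB; their part in the RA levels of H19, Mest, Meg3 and Igf2 was not tested.

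**Figure D3:**
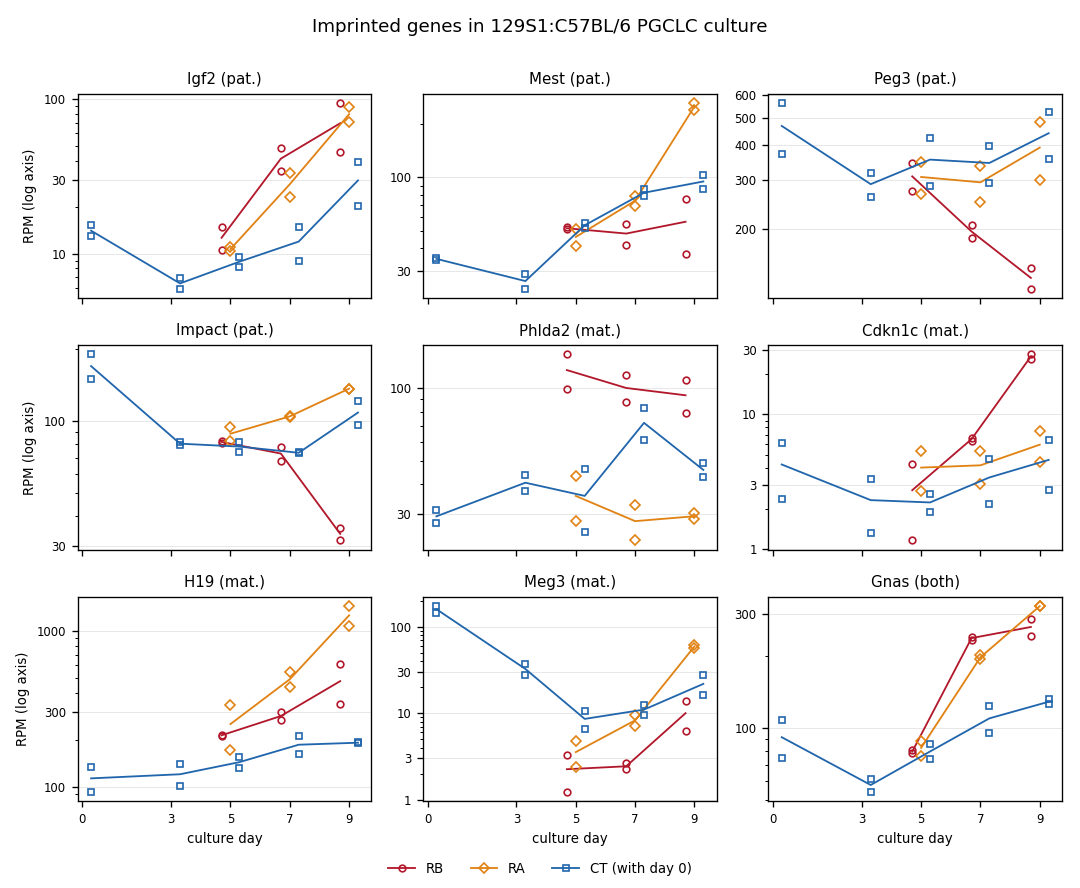
RPM (log axis) of 9 imprinted genes by culture day in 129S1:C57BL/6 PGCLCs; each symbol is a library and lines join group means, with red circles for RB, orange diamonds for RA and blue squares for CT, which includes day 0. Values below 0.3 RPM would be drawn at 0.3; Phlda2 is highest under RB from day 5 and H19 highest under RA at day 9, at 1068 and 1449 RPM.

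The RB and RA responses were set beside the sex difference in the embryo, with which they share no library. Over the 25 imprinted genes tested in both sets, 13 were called for RB against CT at day 9 and 12 for females against males at E14.5. Called in both were 6, 46.2% of the culture calls and 50.0% of the embryo calls, against 59.3% and 46.7% over all genes. The direction was the same for 5 of the 6 (Igf2, Phlda2 and Gnas higher, Usp29 and Meg3 lower) and opposite for Sgce, against 89.5% the same over all genes called in both. Each of those 5 lost its RB call in at least 1 fit without a library, and Phlda2 and Usp29 also lost the E14.5 call. With E13.5, 6 were called in both, 46.2% of the culture calls and 54.5% of the 11 embryo calls, against 25.1% and 55.2% over all genes; 5 had the same direction (Igf2, Phlda2, H19, Grb10 and Gnas higher) and Meg3 the opposite one, against 83.7% the same over all genes. For RA against CT and E14.5, over the same 25 genes, 5 were called in both, 71.4% of the 7 culture calls and 41.7% of the embryo calls, against 57.8% and 18.7% over all genes, and 3 had the same direction (Igf2, Cd81 and Gnas), against 68.3% the same over all genes. RB and RA share the CT libraries. Set side by side, Phlda2 reached 528 and 559 RPM in E13.5 females and 139 and 99.9 RPM at most under RB, and Impact stood at 3.04 and 6.403 RPM in E15.5 females and 35.7 and 31.7 RPM at RB day 9.

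The Stra8 set asked how these genes behave without STRA8, the retinoic acid-induced factor that starts meiosis. Stra8 itself was at 105, 77.9, 122 and 483 RPM in the knockout libraries at RB day 9 (SK1 library 1, SK2, SK1 library 2 and SK3) against 1813 and 1717 RPM in wild type. Which part of the gene was removed is not in the labels, so these 3′ reads show lower RNA and do not check the deletion. At CT day 3, 0 of 27 imprinted genes were called between knockout and wild type by limma, and 0 had an unadjusted p below 0.05; over all genes 1 was called (0.00819%) and 372 had such a p.

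For RB day 9 relative to CT day 3, 14 of 27 rose and 3 fell in knockout cells (33.9% of all genes called). In wild type cells 7 rose and 5 fell (43.7% of all genes called). The set holds no CT library after day 3, so culture day and condition cannot be told apart in these courses. The counts include Dlk1 and Plagl1 in knockout and Rasgrf1 in wild type cells, whose rise was built in by the filter. Medians were 1.07 in knockout and 0.26 in wild type, against 0.27 and 0.23 for all genes. After centring, which shifted all genes by 0.38 and 0.26, the counts were 11 higher and 3 lower in knockout and 6 higher and 7 lower in wild type, and the higher share of all called genes was 56.0% in place of 75.4% and 51.2% in place of 63.6%. Leaving out wild type CT day 3 replicate 1 left 7 calls in wild type, where Peg12, Impact, Nap1l5, Cdkn1c, Meg3 and Ascl2 each lost theirs in some such fit and Rasgrf1 fell below the filter when either day 9 library was left out, so 5 of the 12 held throughout. In knockout cells 12 of 17 held, Peg12, Phlda2 and Meg3 being lost in some fit and Dlk1 and Plagl1 falling below the filter without SK2 or without SK1 library 2 at RB day 9. Fibroblast markers summed to 17.8 to 28.2 RPM at RB day 9 against 123 to 177 RPM at CT day 3 in knockout cells, and to 17.8 to 28.5 RPM against 146 to 160.04 RPM in wild type cells; their part in the courses was not tested. Both genotypes moved the same way for several genes. Gnas stood at 337, 354, 325 and 379 RPM in knockout cells at RB day 9 against 68.1 to 81.2 RPM at CT day 3, and at 217 and 186 RPM in wild type cells against 65.5 and 57.9 RPM. Igf2 stood at 50.9, 62.8, 56.0 and 53.3 RPM in knockout and at 32.7 and 37.5 RPM in wild type cells at day 9, against 2.40 to 7.82 RPM and 5.31 and 4.24 RPM at CT day 3. Peg3 fell in both, by 1.36 ± 0.15 in knockout and by 2.03 ± 0.22 in wild type. In this strain Phlda2 fell as well, to 51.8 to 67.0 RPM in knockout against 109 to 184.5 RPM at CT day 3, a call lost without SK3 at CT day 3 (-0.99), and to 43.7 and 25.8 RPM in wild type against 142 and 124 RPM. In the 129S1 line the RB day 9 libraries held 108 and 78.9 RPM and the CT day 3 libraries 37.5 and 43.5 RPM; the sets differ in strain and were not tested against each other.

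At RB day 9, 7 of 27 imprinted genes were higher and 1 lower in knockout than wild type cells, against 19.1% of all genes called. The 7 include Dlk1 and Plagl1 and the 1 is Rasgrf1. Their differences were built in by the filter, so these counts are not read against that share. The median was 0.77 against 0.09 for all genes. Impact stood at 116, 128, 129 and 100.4 RPM in knockout libraries against 18.5 and 24.3 RPM in wild type (2.42 ± 0.20, adjusted p = 5.46e-11). Mest stood at 93.1, 87.7, 78.5 and 99.7 RPM against 22.7 and 11.7 RPM (2.38 ± 0.23, adjusted p = 8.95e-10). For both, all 4 knockout libraries lay far above both wild type ones. H19 stood at 311, 263, 132 and 202 RPM against 78.9 and 55.3 RPM (1.69 ± 0.32, adjusted p = 8.59e-05) and Meg3 at 22.4, 32.1, 8.61 and 6.95 RPM against 1.68 and 1.87 RPM (2.49 ± 0.52, adjusted p = 0.000307). Ascl2 was also higher, at 16.5 to 27.8 RPM against at most 7.55 RPM, a call lost without wild type replicate 2 (1.39). The other 3 calls of the 8 are given as a description, since each gene passed the filter through 1 of the compared groups alone and fell below it when a library of that group was left out. Dlk1 stood at 3.24 to 6.54 RPM and Plagl1 at 2.32 to 6.70 RPM in knockout libraries, against at most 0.839 RPM for each in wild type. Rasgrf1 stood at 0.324, 0, 0 and 0 RPM in knockout libraries against 5.04 and 5.15 RPM in wild type.

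The difference between the courses was tested as an interaction. Impact (2.43 ± 0.29, adjusted p = 2.53e-07) and Mest (2.19 ± 0.32, adjusted p = 7.91e-06) kept the call under each other setting tried and each left-out library. Impact rose in knockout cells by 1.33 ± 0.17, or 0.95 after centring, and fell in wild type cells by 1.101 ± 0.23, to 18.5 and 24.3 RPM at day 9 against 48.1 and 45.2 RPM at CT day 3, a call lost without day 9 replicate 1 (-0.91). Mest rose in knockout cells by 1.41 ± 0.19 and did not pass the test in wild type cells. In all, 6 were higher and 1 lower of 27, against 14.9% of all genes called. The 6 include Dlk1 and the 1 is Rasgrf1, so these counts are not read against that share. Centring shifted all genes by 0.11 and gave 5 imprinted genes higher and 1 lower. The higher share of all called genes became 47.2% in place of 58.3%. Only 4 were called without wild type CT day 3 replicate 1 or without wild type RB day 9 replicate 2. Without that CT day 3 library, H19 (1.38), Meg3 (1.85) and Dlk1 (1.65) lost the call, and Ascl2 (1.41) did without CT day 3 replicate 2. H19 was also lost without wild type RB day 9 replicate 2 (1.44) and Dlk1 without 7 libraries in all (1.49 to 1.81), and Dlk1 and Rasgrf1 had entered the test through 1 group alone. Some libraries of this set hold spike-in RNA and others do not, and the day 9 differences were given in each kind: Impact 2.59 with (1 knockout against 1 wild type) and 2.23 without (3 against 1), and Mest 1.99 with and 2.81 without. Fibroblast markers summed to 17.8 to 28.2 RPM in knockout and 17.8 to 28.5 RPM in wild type at day 9, over 9 markers with Lum at 0 in both. Of the DNA methylation list, 6 of 16 were higher in knockout cells at day 9 and 0 lower, against 19.1% of all genes called. Dnmt3l averaged 54.1 RPM against 2.53 RPM (4.09, adjusted p = 1.55e-07) and Dnmt3b 55.0 RPM against 17.6 RPM (1.60, adjusted p = 5.43e-06).

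**Figure D4:**
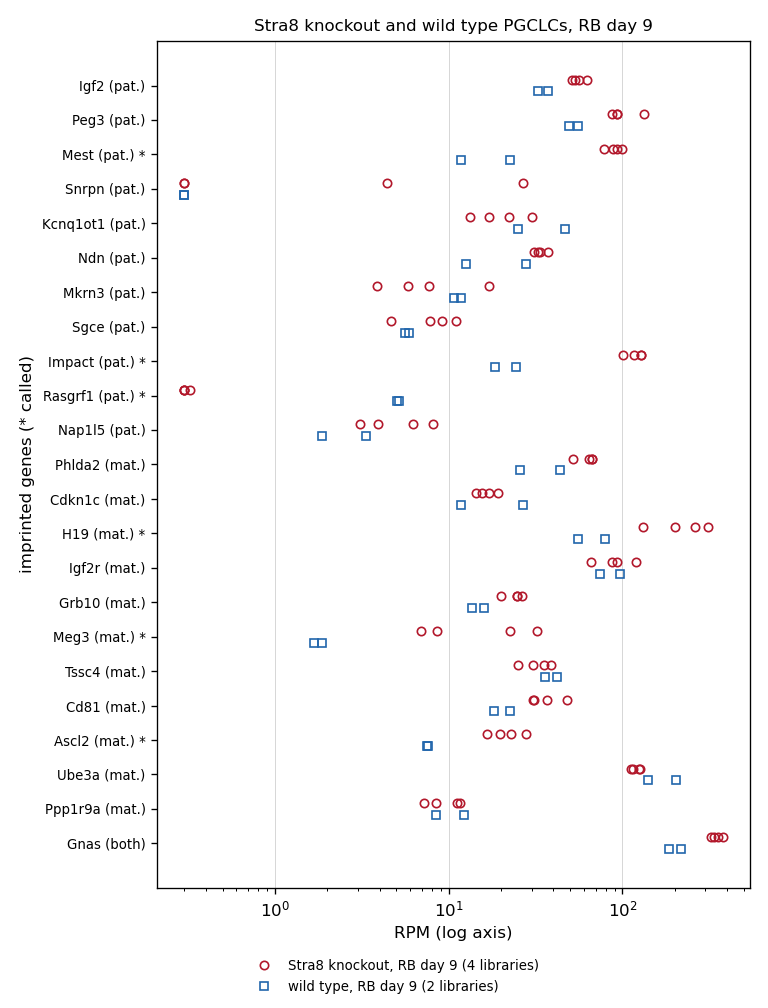
RPM (log axis) at RB day 9 of the 23 imprinted genes with a group mean of at least 5 RPM, paternally expressed first; red circles are the 4 Stra8 knockout libraries, blue squares the 2 wild type ones, a star marks a called gene, and values below 0.3 RPM are drawn at 0.3. Impact and Mest show the 4 knockout libraries apart from both wild type ones, and Rasgrf1 the reverse.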

How the data were processed

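The authors deposited 1 table of 3′ end signal per gene, made by scaling reads to RPM, as its values show; its 96 spike-in entries were left out. The submitters' processing notes name mm10, Cufflinks 2.2.0, Bowtie 1.0.1, TopHat 1.4.1 and cutadapt 1.11; whether strand was used is not given in the sources used here. Between 84.1% and 95.2% of values were whole multiples of the smallest step, within 0.05 reads, so no count test was run. The 2777 values below 0.001 RPM were set to 0.

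Each of the 3 sets was fitted apart in R 4.3.3 with limma 3.58.1 (1 mean per group, trended eBayes) on log2(RPM + 1), for genes at 5 RPM or more in at least 2 libraries, with Benjamini-Hochberg adjustment over all 12567, 11873 and 12206 genes tested. Fold changes on that scale understate changes of low genes. The fit was tested on simulated data. Replicate libraries correlated at 0.978 to 0.993. The labels do not say whether they came from separate litters or cultures, so p-values measure the spread between these libraries. Alternatives were pseudocount 5, no filter, median centring, quantile normalization, a replicate block, leaving out each library and averaging the SK1 libraries. Every gene called may be named, with values by library for those reaching 20 RPM, and of other lists up to 4 called genes per comparison. The genes, lists and tests were chosen with earlier results of these data known. Promoter windows came from RefSeq, GRCm38.p6. The 7 single libraries entered no test.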

Additional observations from a re-analysis of the deposited data

Results flagged for a closer look

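The sex difference itself, females less males on the log2 scale, was not the same at E15.5 as at E12.5 for 13 of 29 imprinted genes. The interaction test gave this count, against 49.9% of all genes called. The change was -8.12 for Phlda2, -4.83 for Slc22a18, -4.13 for Meg3, -2.88 for Grb10, -2.59 for Ndn, -2.33 for Sgce, -2.15 for Plagl1, -2.11 for Nnat, -1.90 for Dlk1 and -1.37 for Impact. It was 3.19 for Kcnq1ot1, 2.30 for Gnas and 1.23 for Ube3a. Impact lost the call in some fits without a library, and Impact and Dlk1 lost it with quantile normalization.

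The course from CT day 3 to RB day 9 differed between Stra8 knockout and wild type cells for 7 of 27 genes, against 14.9% of all genes called. The knockout course exceeded the wild type one by 2.53 for Meg3, 2.43 for Impact, 2.19 for Mest, 2.18 for Ascl2, 1.69 for H19 and 1.65 for Dlk1, and was below it for Rasgrf1 (-2.51). Dlk1 and Rasgrf1 had entered this test through 1 group alone, so the count is not read against the share of all genes. Only Impact and Mest kept the call whichever library was left out.

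In the knockout groups of 4 libraries, single libraries stood apart from the other 3 in 4 of 53 sets of a gene and a group. Chance alone gives about 1 in 20, but a lone value above 3 zeros always stands apart, so this count is not read against it. Peg3 was at 132 RPM in SK1 library 1 at RB day 9, with the others at 86.6 to 93.6 RPM. Snrpn, whose reads are split with Snurf in an uncertain way, was at 26.9 RPM in SK3 at RB day 9, with the others at most at 4.43 RPM. Dlk1 in SK3 at CT day 3 (0.588 RPM) and Rasgrf1 in SK1 library 1 at RB day 9 (0.324 RPM) were values under the level of 3 reads, beside 3 libraries at 0.

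Among the 7 libraries without a replicate, some exceeded all 46 replicated PGCLC libraries. Cdkn1c stood at 31.6 RPM in the 129S1 library labelled 0R3B at day 9, against 1.17 to 27.8 RPM. Phlda2 stood at 469 RPM in the C57BL/6 library labelled d4c0 and 235 RPM in the one labelled c0RB, against 18.5 to 184.5 RPM.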

How the results depend on the processing

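No called imprinted gene changed direction under the 5 other settings, the SK1 average or the left-out libraries given next. Median centring kept 208 of the 221 gene calls, quantile normalization 193, no filter 204, averaging SK1 26 of the 26 still tested (Dlk1, Plagl1 and Nap1l5 then fell below the filter) and leaving out a library 919 of the 1054 still tested, with 22 more below the filter. Pseudocount 5 kept 149 and brought the counts of called genes to 7 for female and 7 for male E13.5 against E11.5, 7 and 8 for females against males at E14.5 and E15.5, 1 and 7 for RB against CT at days 5 and 9, 7 for the wild type and 11 for the knockout course, and 5 for knockout against wild type at day 9. With no filter the counts were 2 for CT day 3 against day 0 and 1 for RB against CT at day 5. With quantile normalization, females against males at E14.5 gave 10 higher and 4 lower in place of 7 and 6, and at E15.5, where it shifted all genes by -0.16, 7 and 5 in place of 5 and 8.

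Leaving out each library in turn gave 9 to 13 genes for E11.5 against E9.5, 1 to 3 for CT day 3 against day 0, 1 to 2 and 7 to 12 for RB against CT at days 5 and 9, 7 to 12 for the wild type course, and 4 to 8 for the difference of courses. Replicate numbers gave pairing correlations of -0.06 to 0.15. These values alone do not show whether libraries of the same number share more than the number. In the Stra8 set the number went with spike-in RNA. Wild type and SK1 libraries numbered 1 held it, and those numbered 2 did not. The fit with a replicate block kept 220 of 221 calls, Peg12 in male E13.5 against E11.5 being lost. The block gave 6 called genes in place of 4 for CT day 3 against day 0 and 13 for RB against CT at day 9, as without it.

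Alternatives chosen after seeing the data gave 5 genes for E11.5 against E10.5, and 3 (females) and 1 (males) for E15.5 against E14.5. There, female Kcnq1ot1 (-0.64), Rasgrf1 (-0.39), Sgce (-0.038), Peg12 (0.25) and Snrpn (0.012) and male Igf2 (-0.16) and Ascl2 (0.32) turned direction; these fits compare other stages by construction. In the Stra8 set, a spike-in covariate kept 43 of 44 calls. Depth limits genes near 3 reads, 0.192 to 2.78 RPM.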

Other observations

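In the C57BL/6 libraries, each without a replicate and so given as values only, Phlda2 stood at 469 RPM in d4c0 at day 0, 158 RPM in c0CT and 235 RPM in c0RB at day 2, 133 RPM in c7 at day 7, and 73.5 RPM in c7CT and 30.7 RPM in c7RB at day 9. Mest stood at 27.2 RPM in d4c0, 39.8 RPM in c0CT, 40.7 RPM in c0RB, 117 RPM in c7, 132 RPM in c7CT and 72.9 RPM in c7RB. Meg3 stood at 43.9 RPM in d4c0 and at 1.93 to 15.7 RPM in the other 5.

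In the 129S1 library labelled 0R3B at day 9, Impact stood at 4.09 RPM and Peg3 at 44.7 RPM, values outside the ranges of the RB day 9 libraries of the same line (31.7 to 35.7 and 123 to 146 RPM). Stra8 stood at 2711 RPM and Dppa3 at 34.2 RPM in that library.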
